A study of Mus musculus with 12 samples.

Results

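The average effect of GW1516 on quadriceps gene expression was measured by setting the 6 arrays whose mice received GW1516 against the 6 whose mice did not, with AICAR as a second factor. All 12 arrays of the study entered this comparison, and they fell into 4 groups of 3. Every group consisted of C57Bl/6J mice treated for 6 days. The vehicle group received neither drug, the AICAR group received 250 mg/kg/day of AICAR, the GW1516 group received 5 mg/kg/day of GW1516, and the combination group received both drugs at those doses. Each array was hybridised with total RNA pooled from 3 mice of a group, and age and sex are not stated in the labels. Nothing states that the 3 pools of a group came from different mice, so the p-values below measure the spread between pools, which may be technical.

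GW1516 is a synthetic agonist of PPARδ, a nuclear receptor that binds DNA together with RXR and responds to fatty acids. In skeletal muscle PPARδ is known for genes that take up, transport and oxidise fatty acids and for genes that hold back glucose oxidation. AICAR enters cells as an adenosine analogue and, once phosphorylated, activates AMPK, the kinase that senses a fall in cellular energy. The layout asks which transcripts respond to the PPARδ agonist whether or not AMPK is activated at the same time.

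The tissue label was checked first. All 12 skeletal muscle markers passed the signal filter, among them Ckm, Acta1 and Myh4, and their summed signal lay between 188831 and 236911 on the 12 arrays. Correlations between arrays ranged from 0.947 to 0.968, and median signals from 45.4 to 54.2. GW1516 replicate 2 stood apart: its score on the first principal component, which held 13.4% of the variance, was 45.9, while the other 11 arrays lay between -18.7 and 6.77. Several results that rest on this array, though not all, are therefore given with and without it. Muscle is a mixture of cell types, and fewer cells of a type cannot be told apart from less RNA per cell in these data.

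Calls were made at an adjusted p below 0.05 in limma's additive fit, with Benjamini-Hochberg adjustment over 12771 genes. By this criterion 18 genes, or 0.141%, changed with GW1516. Of these, 14 rose (0.11%) and 4 fell (0.0313%). Of the 14 that rose, 7 are on the list of mitochondrial fatty acid oxidation, which holds 25 of the 12771 genes tested. That list was drawn up with earlier results of these arrays known. The genes that fell were a glycolytic regulator, a muscle mitochondrial factor, a secreted glycoprotein and a collagen. At an unadjusted p below 0.05 there were 512 genes higher (4.01%) and 698 lower (5.47%), 1210 in all, where 639 would be expected by chance. Without GW1516 replicate 2 the count was 26, and 17 of the 18 genes were called again. All values below are log2 changes, with GW1516 minus without and adjusted for AICAR, followed by the standard error (SE) from 12 arrays.

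**Figure D1:**
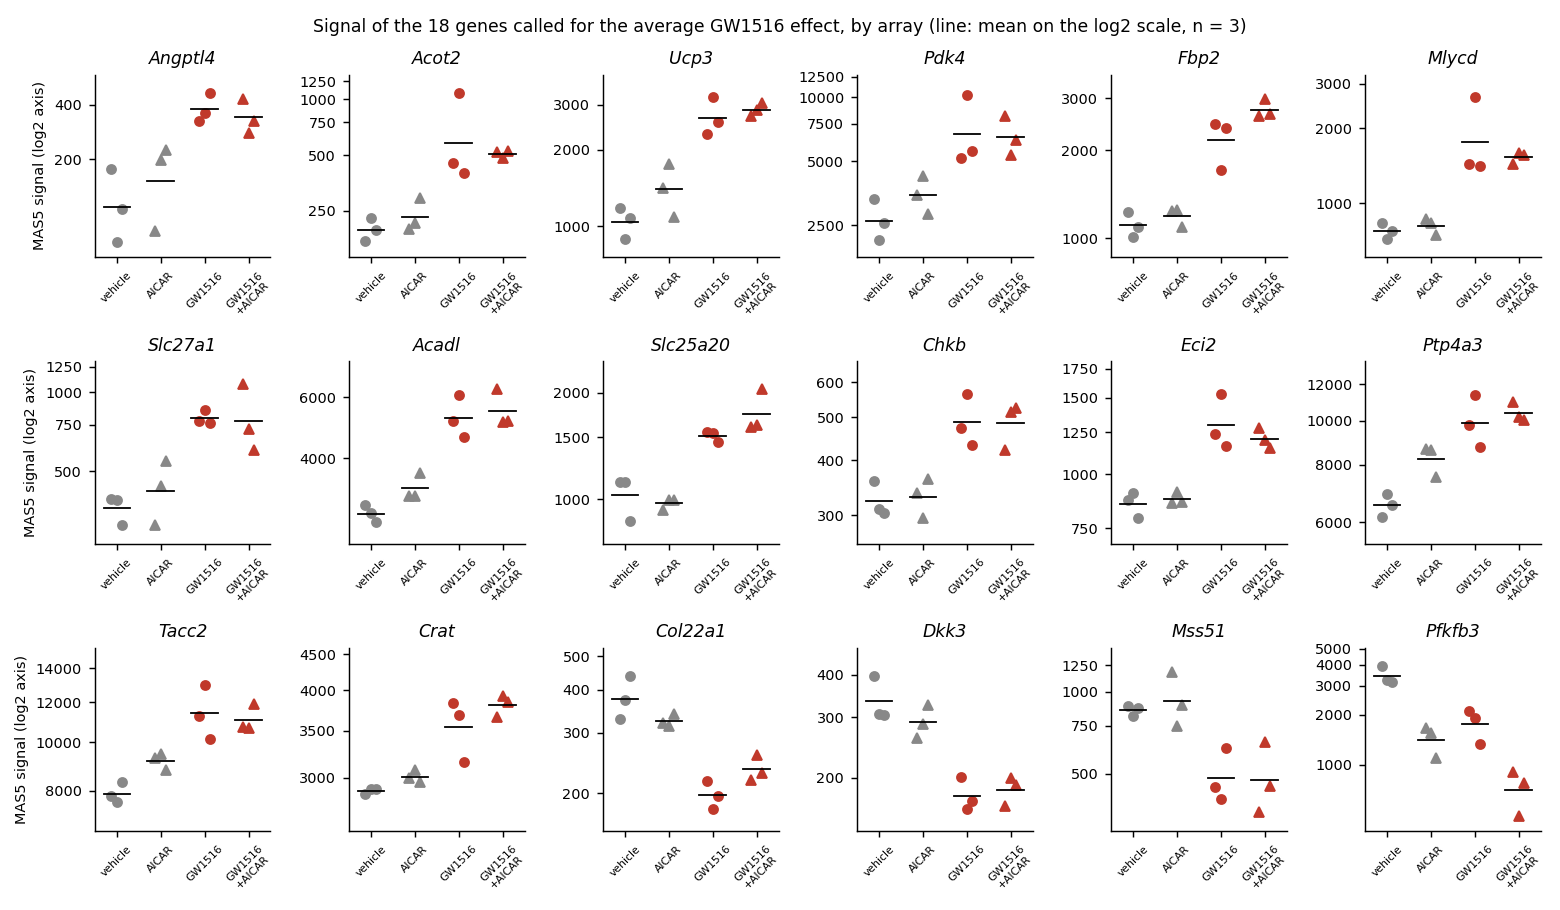
MAS5 signal of each of the 18 called genes on every array (points, log2 axis, arbitrary units), with circles for arrays without AICAR, triangles for arrays with AICAR, grey for no GW1516 and red for GW1516; the horizontal line is the group mean on the log2 scale (n = 3). In 17 of the 18 genes all red points lie on 1 side of all grey points, and Pfkfb3 is the exception.

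Fatty acids must cross the cell membrane, be linked to carnitine and enter the mitochondrion before they are oxidised. Slc27a1, a fatty acid transport protein of the cell membrane, had signals of 311 to 549 (median 389) without GW1516 and 603 to 1070.1 (median 769) with it. It rose by 1.01 ± 0.15 (limma, adjusted p = 0.00864). Slc25a20, the carrier that exchanges acylcarnitine for carnitine across the inner mitochondrial membrane, ran from 867 to 1118 (median 996) without GW1516 and from 1450.4 to 2043 (median 1574) with it. It rose by 0.70 ± 0.09 (adjusted p = 0.00232). Neither gene had an array with GW1516 inside the range of the arrays without it.

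Mlycd encodes malonyl-CoA decarboxylase, which removes the inhibitor of carnitine palmitoyltransferase. Its signals were 723 to 868 (median 808) without GW1516 and 1412 to 2664 (median 1497) with it, a rise of 1.04 ± 0.13, or 2.05-fold (limma, adjusted p = 0.00232). The highest array was GW1516 replicate 2, and the other 5 arrays with GW1516 lay between 1412 and 1595. Without replicate 2 the change was 0.89 (adjusted p = 2.31e-06). Cpt1a, the liver-type carnitine palmitoyltransferase, overlapped between the groups. It ran from 137 to 250.0 without GW1516 and from 193 to 319.6 with it, a difference of 0.59 ± 0.17 that did not pass (adjusted p = 0.337). Its muscle form Cpt1b has no probe set of its own in the annotation used and was not tested.

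Inside the mitochondrion, Acadl, the long-chain acyl-CoA dehydrogenase, catalyses the opening step of the spiral for long chains. Its signals were 2926, 2773 and 2625 in the vehicle arrays and 3109, 3111 and 3632 in the AICAR arrays, against 5134, 6115 and 4609 in the GW1516 arrays and 6344, 5102 and 5134 in the combination arrays. Acadl rose by 0.83 ± 0.08 (1.78-fold, limma, adjusted p = 0.000166), with every array with GW1516 above every array without it. Eci2, an enoyl-CoA isomerase needed for unsaturated fatty acids, rose by 0.53 ± 0.07 (adjusted p = 0.00504), from 791 to 907 (median 867) without GW1516 to 1149 to 1530.0 (median 1216) with it. The dehydrogenase for shorter chains did not pass: Acadm, the medium-chain dehydrogenase, differed by 0.10 ± 0.07 (adjusted p = 0.641). Acadm signals of 4379 to 4808 without GW1516 and 4341 to 5501 with it overlapped.

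Other called genes act on acyl groups or on the proton gradient. Acot2, a mitochondrial thioesterase that frees fatty acids from CoA, rose by 1.34 ± 0.20 (2.54-fold, limma, adjusted p = 0.0106). Its signals were 171 to 294 (median 206) without GW1516 and 400.0 to 1079 (median 500.3) with it. The 1079 came from GW1516 replicate 2, the other arrays with GW1516 reached at most 529, and without that array the change was 1.12 (adjusted p = 0.000134). Acot1, a close paralogue, lay below the signal filter, and hybridisation of its RNA to the Acot2 probe sets was not tested. Crat, carnitine acetyltransferase, rose by a smaller 0.32 ± 0.05 (adjusted p = 0.0206), from 2845 to 3074 without GW1516 to 3158 to 3925 with it. The Crat groups were separated by the narrow gap between 3074 and 3158.

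Ucp3, the muscle uncoupling protein of the inner mitochondrial membrane, had signals of 1178, 895 and 1079 in the vehicle arrays and 1417, 1757 and 1091 in the AICAR arrays. In the GW1516 arrays it stood at 2301, 3218 and 2559, and in the combination arrays at 2722, 2854 and 3050.1. Ucp3 rose by 1.20 ± 0.12, or 2.29-fold (limma, adjusted p = 0.000166), and a second probe set gave 1.26. The lowest array with GW1516 lay above the highest without it.

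Among the called genes with a promoter sequence to search, Ucp3 was the 1 whose proximal promoter held the nuclear receptor core motif. The called genes without such a sequence were not searched. PPARδ and RXR bind paired copies of a motif close to AGGTCA, so the 250 bases before each start were searched on both strands for AGGTCA and for a direct repeat of AGGNCA with 1 base between the copies. Promoter sequences were from RefSeq (GRCm38.p6), where 11 of the 14 genes that rose were matched. AGGTCA was present in 1 of these 11 (9.09%), against 13.6% of the 10305 tested genes that were matched, and in 0 of the 2 matched genes that fell. The direct repeat was in 0 of these genes and in 0.291% of the matched tested genes. Both Ucp3 copies lie on the gene's own strand, the plus strand, 149 and 44 bases before the start, at chr7:100472842-100472847 and chr7:100472947-100472952. They are shown with 20 bases on each side, from chr7:100472822-100472867 and chr7:100472927-100472972, with the motif in capitals.
Ucp3 upstream copy: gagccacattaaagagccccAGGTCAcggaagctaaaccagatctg
Ucp3 downstream copy: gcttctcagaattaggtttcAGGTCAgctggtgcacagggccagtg
The search covers only these letters in this window and says nothing about binding elsewhere.

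Fuel choice between glucose and fat is set in part by pyruvate dehydrogenase. Pdk4, the kinase that switches this complex off, had signals of 2119.9 to 4264 (median 3077) without GW1516 and 5172 to 10276 (median 5967) with it. It rose by 1.13 ± 0.18 (2.19-fold, limma, adjusted p = 0.0124), with no overlap. The 10276 was GW1516 replicate 2, and without that array Pdk4 differed by 0.97 (adjusted p = 0.00394). Of the 12 tested genes of pyruvate dehydrogenase and its control Pdk4 alone was called, and 8 of the 12 lay below 0. The other kinase isoforms Pdk1 and Pdk2 stood at -0.07 and 0.15, not passing.

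In the glycolytic list 1 gene rose and 1 fell among 27 tested. Fbp2, the muscle fructose bisphosphatase, which opposes phosphofructokinase, had the smallest p of all genes. Its signals were 1010.4 to 1254 (median 1162) without GW1516 and 1717 to 2982 (median 2535) with it, a rise of 1.08 ± 0.09, or 2.12-fold (limma, adjusted p = 7.8e-05). GW1516 replicate 2 was here the lowest array with GW1516, at 1717, still above all arrays without it. The list's median was 0.04, beside -0.02 for all genes. Of all 27 members, 4 were higher and 2 lower at an unadjusted p below 0.05, Fbp2 and Pfkfb3 included. Pfkm stood at 0.07, Pkm at 0.04 and Hk2 at 0.07, none passing, and Pfkfb4, a relative of Pfkfb3, at 0.23 ± 0.07 (adjusted p = 0.35).

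Pfkfb3 makes the metabolite that activates phosphofructokinase, and it was the called gene with the largest fall. Its signals were 3954, 3226 and 3151 in the vehicle arrays and 2122, 1907 and 1342 in the GW1516 arrays. In the AICAR arrays they were 1668, 1551 and 1092, and in the combination arrays 907, 492 and 779. Pfkfb3 fell by 0.99 ± 0.15 with GW1516 (limma, adjusted p = 0.0124). Averaged over both GW1516 backgrounds it also fell by 1.30 with AICAR (adjusted p = 0.00492). Within each AICAR background the arrays with GW1516 lay below those without, by 0.96 in the absence and 1.01 in the presence of AICAR, and the interaction of -0.05 had an unadjusted p of 0.887. Because AICAR moved the gene as well, 3 arrays with GW1516 lay inside the range of those without. A second probe set gave a change of -0.50. Pfkfb3 was 1 of 6 genes called for the average AICAR effect (0.047% of genes) and the 1 gene shared by the calls of both drugs.

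Angptl4, a secreted inhibitor of lipoprotein lipase, had the largest rise of the called genes and the widest scatter. Its signals were 177, 71 and 107 in the vehicle arrays and 80.9, 198 and 224 in the AICAR arrays, against 326, 361 and 462 in the GW1516 arrays and 427, 281 and 327 in the combination arrays. The groups did not overlap, and the rise was 1.46 ± 0.26, or 2.76-fold (limma, adjusted p = 0.034). Angptl4 was called in 4 of the 12 omissions of 1 array, those of vehicle replicate 1, AICAR replicates 2 and 3 and combination replicate 2. Without GW1516 replicate 2 it stood at 1.44 with an adjusted p of 0.0556, and the adjusted p ranged from 0.0169 to 0.126 over the 12 omissions. Lpl, the lipase itself, differed by 0.09 ± 0.15 (adjusted p = 0.874). Whether fat cells in the pools add to the scatter of Angptl4 was not tested.

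Genes of proteins that coat lipid droplets did not pass in the additive fit with the brightest probe set of each gene. Plin5, which ties droplets to mitochondria, differed by 0.82 ± 0.21 (limma, adjusted p = 0.29), Plin4 by 0.51 ± 0.10 (adjusted p = 0.0541) and Plin2 by 0.42 ± 0.16 (adjusted p = 0.451). The second Plin5 probe set, of similar mean signal (233 against 268), gave 1.10 ± 0.18 and passed where every probe set was tested on its own (limma, adjusted p = 0.02). Plin4 stood just outside the threshold and was at 0.43 without GW1516 replicate 2 (adjusted p = 0.0268). In the fit of 4 group means the same Plin4 change of 0.51 passed (limma, adjusted p = 0.00495). Over 15 alternative settings other than omissions of 1 array, Plin4 was called in 5. Fabp3, the muscle fatty acid binding protein, differed by 0.47 ± 0.10 (adjusted p = 0.103), and Cd36, a membrane receptor for fatty acids, by 0.22 ± 0.16 (adjusted p = 0.692). In each of these 5 genes at least 1 array with GW1516 lay inside the range without it.

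The other 3 genes that rose were on none of the fatty acid lists. Chkb, choline kinase beta, which starts the synthesis of phosphatidylcholine, ran from 296 to 363 (median 323) without GW1516 and from 422 to 563 (median 494) with it, a rise of 0.57 ± 0.09 (limma, adjusted p = 0.0153). Chkb lies next to Cpt1b, and a probe set annotated to both genes was left out. Whether RNA from Cpt1b contributes to the Chkb signal was not tested. Ptp4a3, a protein tyrosine phosphatase, rose by 0.46 ± 0.07 (adjusted p = 0.0153), from 6156 to 8652 without GW1516 to 8735 to 11352 with it. Tacc2, a coiled-coil protein associated with centrosomes and microtubules, rose by 0.40 ± 0.07 (adjusted p = 0.032), from 7598 to 9465 without GW1516 to 10146 to 12995 with it. For Ptp4a3 the gap between 8652 and 8735 was narrow, and its second probe set gave 0.19.

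Apart from Pfkfb3, 3 genes fell. Mss51, a protein of skeletal muscle linked to mitochondrial metabolism, ran from 749.8 to 1181 (median 879) without GW1516 and from 364 to 653 (median 449) with it. It fell by 0.89 ± 0.15 (limma, adjusted p = 0.0153), and no array with GW1516 reached the lowest array without it. Dkk3, a secreted glycoprotein of the Dickkopf family, fell by 0.79 ± 0.11 (adjusted p = 0.00496). Its signals were 398, 308 and 306 in the vehicle arrays, 261, 287 and 327 in the AICAR arrays, 200.3, 162 and 171 in the GW1516 arrays and 165, 199 and 189.7 in the combination arrays. The highest Dkk3 array with GW1516, at 200.3, lay below the lowest without it, at 261, and a second probe set gave -0.54.

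Col22a1, a collagen of the muscle-tendon junction, had signals of 328, 372 and 439 in the vehicle arrays and 320.2, 314 and 339 in the AICAR arrays. In the GW1516 arrays it stood at 218, 181 and 196, and in the combination arrays at 218, 259 and 229. Col22a1 fell by 0.70 ± 0.11 (limma, adjusted p = 0.0124), with no overlap. Its 3 probe sets disagreed: the brightest gave this value, one of similar mean signal (264 against 274) gave -0.27 and the dimmest -0.08. With the mean of its probe sets Col22a1 stood at -0.35 and was not called (adjusted p = 0.317). Below the threshold on the lower side, Htra4, a serine protease, stood at -0.92 ± 0.17 (adjusted p = 0.0537). Pdgfrb, a receptor of pericytes and fibroblasts, stood at -0.44 ± 0.09 and the nuclear RNA Malat1 at -0.38 ± 0.08, both at an adjusted p of 0.103. A dimmer Pdgfrb probe set (mean signal 141 against 229) gave -0.03 ± 0.30. Junos at -0.60 and Atp6ap1, a subunit of the vacuolar proton pump, at -0.29 did not pass either.

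The 6 arrays with GW1516 lay wholly above the 6 without in 58 genes (0.454%) and wholly below in 39 (0.305%), and 17 of the 18 called genes were among them. The calls came from these same arrays, so the count of 17 follows in part from the choice of the genes. Over the 12 omissions of 1 array, Acadl, Acot2, Col22a1, Dkk3, Eci2, Fbp2, Mlycd, Pfkfb3, Slc25a20, Slc27a1 and Ucp3 were called 12 times. Pdk4 was called 11 times and stood at 1.10 without vehicle replicate 3 (limma, adjusted p = 0.0568). Mss51 was called 9 times, Chkb and Ptp4a3 8 times, Tacc2 5 times and Crat 4 times, while their changes kept within -0.99 to -0.80, 0.52 to 0.62, 0.41 to 0.49, 0.34 to 0.43 and 0.30 to 0.36. The arrays whose omission ended the Mss51 call were vehicle replicates 1 and 3 and combination replicate 3, with adjusted p up to 0.0624. For Chkb they were vehicle replicates 2 and 3 and combination replicates 2 and 3 (adjusted p up to 0.0624). For Ptp4a3 they were the vehicle arrays and AICAR replicate 3 (adjusted p up to 0.0684). Tacc2 was called without AICAR replicate 2, GW1516 replicate 2 or 3, or combination replicate 1 or 2, and not called without any of the other 7 arrays (adjusted p up to 0.127). Crat was called without 1 of the GW1516 arrays or combination replicate 1, and not called without any of the other 8 (adjusted p up to 0.0815). With the mean of each gene's probe sets Angptl4, Col22a1, Crat, Ptp4a3 and Slc27a1 were not called (limma, adjusted p = 0.0535, 0.317, 0.259, 0.259 and 0.0617). The number of genes called was 11 without vehicle replicate 3, and 5 (Acadl, Dkk3, Fbp2, Slc25a20 and Ucp3) when the variance prior did not follow the signal.

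**Figure D2:**
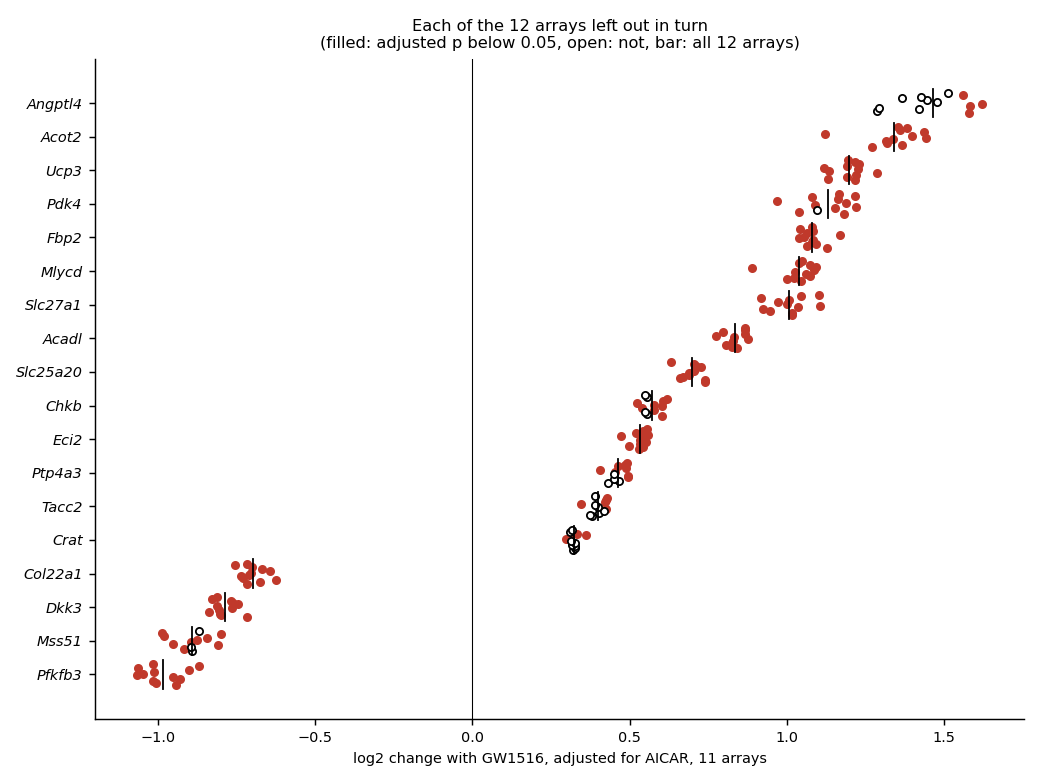
Log2 change with GW1516, adjusted for AICAR (horizontal axis), of each called gene when each of the 12 arrays was left out in turn (points), filled where the adjusted p was below 0.05 and open where not; the bar marks the value from all 12 arrays. All points keep the sign of the bar, and 11 of the 18 genes have filled points only.

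The effect of GW1516 was next taken apart into its estimates without AICAR (GW1516 minus vehicle) and with AICAR (combination minus AICAR), which share no array. Alone, the first called 12 genes (0.094%) and the second 4 (0.0313%). These counts leaned on single arrays: omitting vehicle replicate 2 or 3 left 0 calls in the first, omitting vehicle replicate 1 left 6, and omitting AICAR replicate 2 or combination replicate 2 or 3 left 7. Omitting GW1516 replicate 1 gave 41. The second was 10 without GW1516 replicate 2 and 1 or 2 without any vehicle, AICAR or combination array. All 18 genes called for the average had the same sign in both backgrounds, as did 53.3% of all genes. In all 18 the 3 arrays with GW1516 did not overlap the 3 without in either background. Over all genes 14.2% did not overlap without AICAR and 14.5% with it, and the share for both at once was not computed. The average was taken over these same arrays, so both counts follow in part from the choice of the genes. Among the 18, Ucp3 differed by 1.35 without and 1.04 with AICAR, Acadl by 0.92 and 0.75, Slc25a20 by 0.56 and 0.84, Fbp2 by 0.96 and 1.20, and Mss51 by -0.82 and -0.96. The change was larger in size without AICAR in 13 of the 18. Of the 18, 8 were called in neither background alone, 9 in the arrays without AICAR, 4 in the arrays with AICAR, and 3 (Acadl, Fbp2 and Ucp3) in both. The 8 were Acot2, Angptl4, Chkb, Crat, Mss51, Pdk4, Pfkfb3 and Slc27a1.

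The calls of one background were then read in the arrays of the other. Both estimates came from 1 fit with 1 variance per gene, so a gene called in one has a small SE in the other too, and the p-values are not independent readings. Of the 12 genes called without AICAR, 11 had the same sign in the arrays with AICAR, 10 did not overlap there and 10 had an unadjusted p below 0.05 there. Over all genes 14.5% did not overlap in the arrays with AICAR and 7.32% had such a p. The 4 genes called with AICAR, Slc25a20 among them, all met these criteria in the arrays without AICAR, where 14.2% and 9.64% of all genes did. Over all genes the 2 sets of changes were nearly unrelated (Pearson r = 0.06 and Spearman rho = 0.07 across genes, which are not independent), and 53.3% of genes had the same sign.

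**Figure D3:**
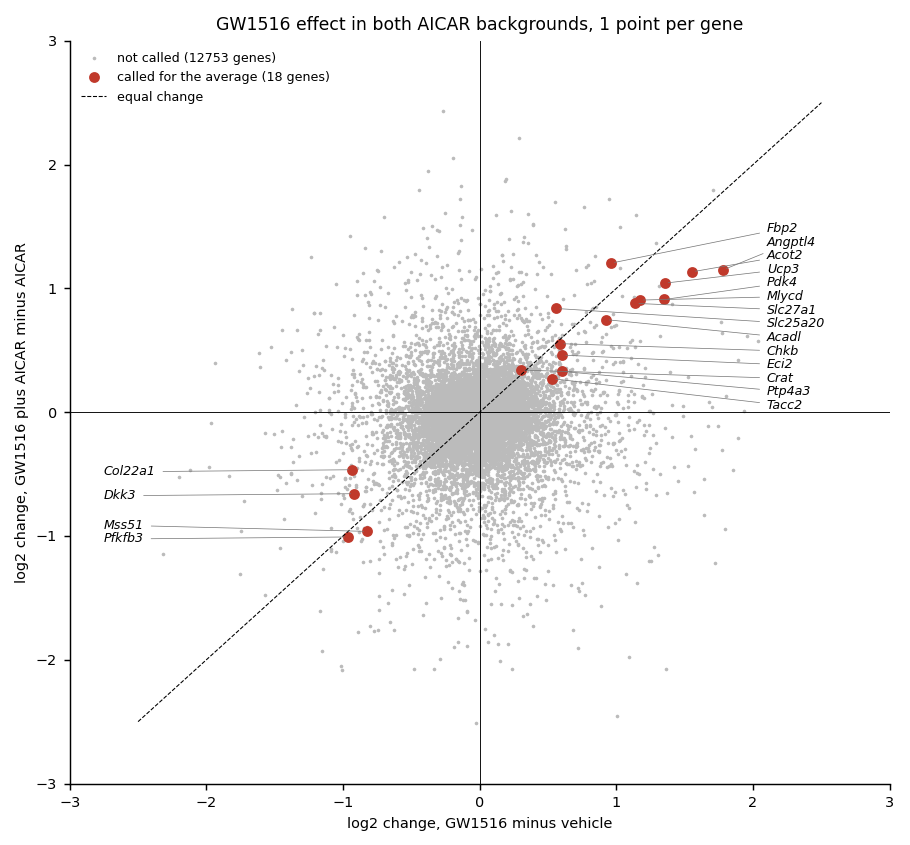
Log2 change by GW1516 without AICAR (horizontal axis, GW1516 minus vehicle, n = 3 against 3 arrays) and with AICAR (vertical axis, combination minus AICAR, n = 3 against 3), 1 point per gene, with the 18 called genes in red and the dashed line marking equal change. The red points lie at the upper right and lower left, 14 above 0 and 4 below 0 on both axes.

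The difference between backgrounds was tested directly as the interaction. No gene was called (0 of 12771 by limma, with 848 at an unadjusted p below 0.05 and a lowest adjusted p of 0.703). The median SE of the interaction was 0.27, against 0.14 for the average effect. Of the genes called in the arrays without AICAR, 3 were not called for the average. Exosc5, a subunit of the RNA exosome, stood at 0.68 without AICAR and -0.01 with it, Lpin1, a phosphatidate phosphatase of lipid synthesis, at 0.58 and 0.03, and Plin4 at 0.78 and 0.25.

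Vehicle signals of Lpin1 were 4195, 4498 and 4616, and those of the GW1516 arrays were 6155, 7551 and 6301. The AICAR arrays gave 6013, 5886 and 5409 and the combination arrays 5787, 5802 and 6015, so that the vehicle arrays were lowest, the GW1516 arrays highest, and the AICAR and combination arrays overlapped between them. Plin4 was likewise lowest in the vehicle arrays, at 2726 to 2761, and ranged from 3828 to 4503 in the AICAR arrays, 4310.3 to 5488 in the GW1516 arrays and 4789 to 5318 in the combination arrays. Their unadjusted interaction p was 0.00035 and 0.00169, and 0.000255 for Exosc5. None passed after adjustment. Among the 18 called genes Col22a1 had the smallest unadjusted interaction p, 0.0249, with -0.93 without and -0.47 with AICAR.

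The wider pathways were followed through gene lists, read beside all genes tested, of which 5831 of 12771 lay above 0 with a median of -0.02. Among PPAR target genes, a list that holds several of the genes above, 24 of 31 were tested. The other 7 were not analysed here, among them Acot1 and Fgf21, which lay below the signal filter. Of these 24, 22 lay above 0, 8 rose, none fell, and the median was 0.45 (0.53 without AICAR and 0.36 with it). Besides the called members, Acadvl, the very-long-chain acyl-CoA dehydrogenase, stood at 0.30 ± 0.07 (limma, adjusted p = 0.26) and catalase, Cat, at 0.43 ± 0.14 (adjusted p = 0.39). Members near 0 were Cpt2, the inner carnitine palmitoyltransferase, at 0.07, Vldlr at -0.01 and Ehhadh, a peroxisomal enzyme, at -0.06. The list chosen here was drawn up with earlier results of these arrays known, so its count is not independent evidence of a direction.

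Mitochondrial fatty acid oxidation had 23 of 25 tested members above 0 and a median of 0.19. Of the 25, 7 rose (Acadl, Acot2, Crat, Eci2, Mlycd, Slc25a20 and Ucp3), of which all but Crat and Eci2 are also on the PPAR target list. Etfb, which passes electrons from the dehydrogenases, stood at 0.34 ± 0.07 (limma, adjusted p = 0.20). The subunits of the trifunctional protein, Hadha and Hadhb, stood at 0.15 and 0.19, not passing. Without GW1516 replicate 2 the medians of the PPAR target and oxidation lists were 0.43 and 0.22. Uptake and lipid droplet genes had 17 of 25 above 0, a median of 0.11 and 2 that rose (Angptl4 and Slc27a1).

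The lists of the respiratory chain, TCA cycle, peroxisomal lipid oxidation and ketone body enzymes gave 0 calls each by limma with 1 probe set per gene. The respiratory chain had 42 of 66 members above 0 with a median of 0.02 and 1 at an unadjusted p below 0.05, as in Cox4i1 at 0.09 and Cycs at 0.06. Its medians had opposite signs in the backgrounds, -0.08 without and 0.11 with AICAR. GW1516 replicate 2 had the lowest median of all arrays, -0.26 relative to vehicle, and without that array the average effect had a median of 0.06 with 56 of 66 above 0. The TCA cycle had 7 of 17 above 0, a median of -0.01 and 0 at an unadjusted p below 0.05, with citrate synthase, Cs, at -0.01. Peroxisomal lipid oxidation had 14 of 24 above 0 and a median of 0.02, with 3 higher and 1 lower at an unadjusted p below 0.05. Ketone body enzymes had 1 of 4 above 0. The brightest probe set of Oxct1, which activates ketone bodies for oxidation, stood at -0.19, while another passed at -0.54 ± 0.08 where every probe set was tested on its own (limma, adjusted p = 0.0182).

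The receptors and their partners also gave 0 calls, with 9 of 15 above 0, a median of 0.03, and 1 higher and 1 lower at an unadjusted p below 0.05. Ppard, the receptor that GW1516 binds, differed by 0.21 ± 0.12 (limma, adjusted p = 0.585), and by 0.11 without GW1516 replicate 2, which had its highest signal, 412. The coactivator Ppargc1a stood at -0.09 ± 0.08 (adjusted p = 0.737) and its relative Ppargc1b at -0.28 ± 0.10 (adjusted p = 0.43). Of 15 genes of AMPK and its kinases, 0 were called and 2 were higher at an unadjusted p below 0.05. Among them the muscle catalytic subunit gene Prkaa2 stood at 0.24 ± 0.07 (adjusted p = 0.359). Its dimmer probe sets gave 0.08 ± 0.07 and 0.07 ± 0.12.

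Fibre type genes were tested as well. Fast-twitch genes had 15 of 18 above 0 and a median of 0.09, which was -0.01 with quantile normalization, and slow-twitch genes 7 of 16 above 0 and a median of -0.05. No member of either list was called, and 5 and 0 members had an unadjusted p below 0.05. Myh4, the fastest myosin heavy chain, differed by 0.17 ± 0.06 (limma, adjusted p = 0.424), while the slow troponin gene Tnnt1 stood at -0.78 ± 0.55. A second Myh4 probe set gave 0.03 ± 0.06. The slow myosin Myh7 lay below the signal filter.

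**Figure D4:**
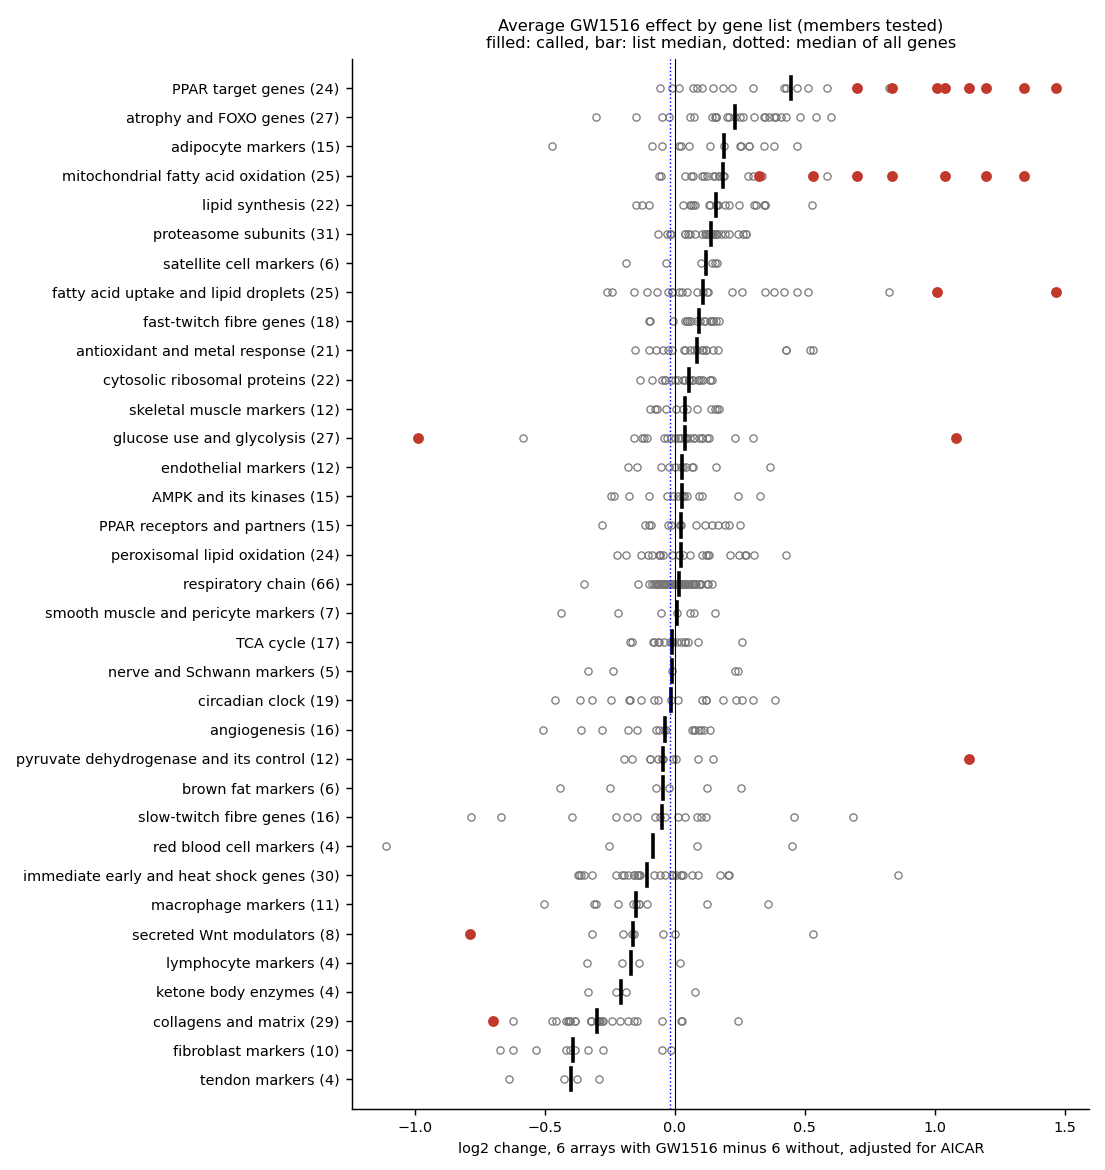
Log2 change with GW1516, adjusted for AICAR (horizontal axis), of every tested member (points) of 35 gene lists, with the number of members in brackets, called genes filled, the list's median as a bar and the median of all genes as the dotted line. PPAR target genes have the highest median, 0.45, and fibroblast and tendon markers the lowest, -0.39 and -0.40.

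Matrix genes stood on the lower side. Of 29 collagens and matrix genes 26 lay below 0, with a median of -0.30, but Col22a1 alone was called. The fibrillar collagens Col1a1 and Col3a1 stood at -0.62 ± 0.27 and -0.40 ± 0.21 (limma, adjusted p = 0.50 and 0.56), and the metalloproteinase Mmp2 at -0.46 ± 0.13 (adjusted p = 0.34). All 10 fibroblast markers lay below 0, with a median of -0.39 and 0 calls (4 at an unadjusted p below 0.05). The 4 tendon markers also lay below 0, with a median of -0.40 and 0 calls (2 at an unadjusted p below 0.05). Of 8 secreted Wnt modulators Dkk3 alone was called, and 7 lay below 0.

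These lists moved with 1 array. Against the vehicle mean, the median of the fibroblast markers was -1.35 on GW1516 replicate 2 and -0.23 to 0.02 on the other 5 arrays with GW1516. For collagens and matrix it was -1.05 against -0.22 to 0.04, and for tendon markers -1.10 against -0.54 to -0.16. Without that array the medians of the fibroblast and the collagen and matrix lists were -0.19 and -0.17, with 9 of 10 and 27 of 29 members below 0. Summed fibroblast marker signal was 35393 to 45327 in the vehicle, 38595 to 47487 in the AICAR, 22889 to 41959 in the GW1516 and 35747 to 38853 in the combination arrays. None of the 4 groups was near 0, and the part of fibroblast content in the fall of Col22a1 or Dkk3 was not tested. Without the same array Col22a1 stood at -0.64 (limma, adjusted p = 0.0173) and Dkk3 at -0.75 (adjusted p = 0.00679).

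The same array set the atrophy genes apart. Atrophy and FOXO genes, whose products drive protein breakdown in fasting muscle, had 23 of 27 above 0 and a median of 0.23, and proteasome subunits had 27 of 31 above 0 and a median of 0.14. By limma 0 members of either list were called (9 and 10 at an unadjusted p below 0.05). Foxo1 differed by 0.54 ± 0.16 (adjusted p = 0.351), the ubiquitin ligases Fbxo32 and Trim63 by 0.36 ± 0.36 and 0.38 ± 0.29. The medians against the vehicle mean were 0.77 and 0.49 on GW1516 replicate 2, against 0.06 to 0.21 and 0.06 to 0.11 on the other arrays with GW1516. Without that array the list medians of the average effect were 0.10 and 0.06.

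Fat cells within the muscle were followed through adipocyte markers. Of 15 tested 12 lay above 0, with a median of 0.19, 0 calls by limma and 0 at an unadjusted p below 0.05. The median was 0.60 without AICAR and -0.27 with it. Summed signal of these markers was 18775 to 28180 in the vehicle, 22026 to 42607 in the AICAR, 17745 to 34183 in the GW1516 and 20101 to 37901 in the combination arrays, so the groups overlapped. Adipoq, the defining adipokine, differed by 0.19 ± 0.37. On vehicle replicates 1 to 3 the marker medians, as differences from the vehicle mean, were 0.47, -0.43 and -0.15. AICAR replicates stood at -0.09, 0.83 and 1.63. Angptl4 signals ranked as these medians did within both groups. They did not within the GW1516 arrays (0.58, -0.19 and 1.17) or the combination arrays (1.39, 0.64 and -0.10). Slc27a1 ranked as the medians did within the AICAR and combination arrays only. The part of fat content in either gene was not tested. Lipid synthesis genes had 19 of 22 above 0 and a median of 0.16 with 0 called (5 at an unadjusted p below 0.05), with Fasn at 0.34 ± 0.41, and their link to the adipocyte markers was not tested. Endothelial markers had a median of 0.03, macrophage markers -0.15 and skeletal muscle markers 0.04, each with 0 calls (1, 1 and 4 members at an unadjusted p below 0.05). Against the vehicle mean, the macrophage median was -0.64 on GW1516 replicate 2 and -0.25 to 0.33 on the other arrays with GW1516.

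**Figure D5:**
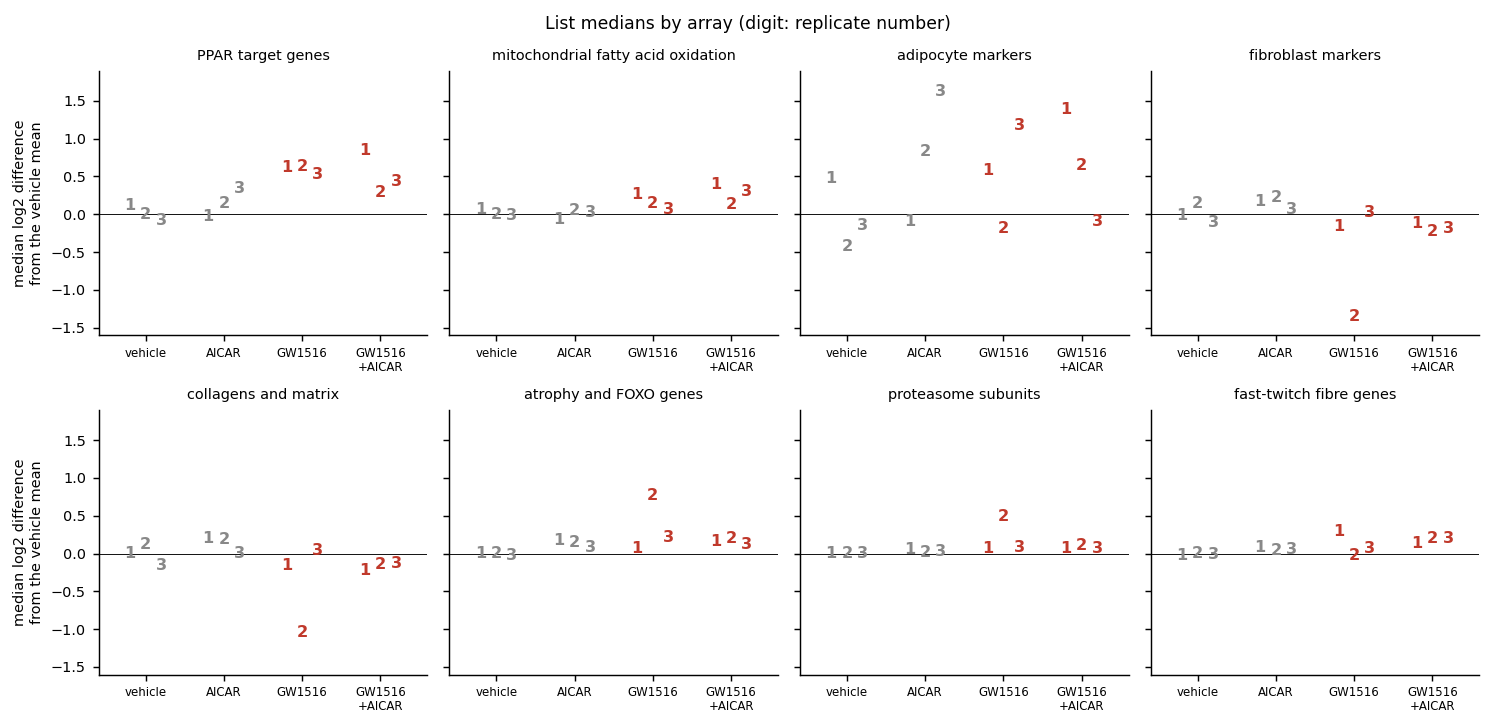
Median log2 difference of a gene list from the vehicle mean (vertical axis) on every array, for 8 lists; digits give the replicate number, grey stands for arrays without and red for arrays with GW1516. GW1516 replicate 2 lies apart for fibroblast markers (-1.35), collagens and matrix (-1.05), atrophy genes (0.77) and proteasome subunits (0.49), whereas for PPAR target genes it lies at 0.63, beside 0.62 and 0.53 on the other GW1516 arrays.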

How the data were processed

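The deposited values were MAS5 signal intensity values, 1 per probe set and array, calculated by the authors per the submitters' processing notes. The software version is not stated, and detection calls were not used here. The arrays shared a trimmed mean of 200, which was computed again from the values. For the Gapdh control, 3' signal over 5' signal was 0.802 to 0.880. The number of arrays limits the precision.

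Of 45101 probe sets, 64 controls were left out, and of the other 45037, 34945 carried 1 gene symbol, 932 several and 9160 none in an array annotation. Matching to a RefSeq gene table (GRCm38.p6) changed 0 symbols. A floor of 1 was set on the signals, which touched 3531 of 540444, before taking log2. The dimmest 40% of probe sets, with a mean below 28.2, were removed. The probe set with the highest mean log2 signal stood for each gene, which gave 12771 genes.

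Limma 3.58.1 in R 4.3.3 was fitted with AICAR and GW1516 as factors (moderated variances with a trend, 9 residual and 5.91 prior degrees of freedom). A fit of 4 group means (8 residual degrees of freedom) gave the effect in each background and the interaction. Tests were two-sided with Benjamini-Hochberg adjustment. Lists were described by counts and medians with no set test. Named were up to 15 called genes per direction with the same sign in both backgrounds, up to 5 genes of smallest p where fewer than 5 were called, a fixed set of metabolic and fibre genes whatever their result (some of which, such as Cpt1b and Myh7, were not tested), up to 4 called members per list, and the genes of smallest interaction p. Other list members were named as examples after their values were seen. The comparison, lists and naming rule were chosen with earlier results of these data known.

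Alternatives changed the normalization, floor, pseudocount, filter, choice of probe set, variance model, design and threshold, and left out each array in turn. All fitting code had been tested on simulated data. Plots were made in Python 3.11.15 with matplotlib 3.10.9.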

Additional observations from a re-analysis of the deposited data

Results flagged for a closer look

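In each group of 6 arrays, with or without GW1516, the highest or lowest value was compared with the others for 144 series of values, and 15 (10.4%) had an array set apart by Dixon's criterion, where chance gives about 5%. GW1516 replicate 2 was that array in 10 of the 15. Its signals of Acot2 (1079, others at most 529), Mlycd (2664, others at most 1595), Eci2 (1530.0, others at most 1275) and Lpin1 (7551, others at most 6301) were the highest. Its list medians against the vehicle mean were 0.77 for atrophy and FOXO genes, 0.49 for proteasome subunits, -1.05 for collagens and matrix, -1.35 for fibroblast markers, -0.42 for lipid synthesis and -0.19 for glucose use. The range of the other 5 arrays was 0.16 to 0.50 for lipid synthesis and 0.03 to 0.12 for glucose use.

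Among the remaining arrays, Crat was lowest on GW1516 replicate 3 (3158, others at least 3667) and Slc25a20 highest on combination replicate 3 (2043, others at most 1619.8). Combination replicate 1 had the highest median of fatty acid uptake and lipid droplet genes (0.72, others 0.15 to 0.27), and combination replicate 3 the lowest of the circadian clock genes (-0.0791, others 0.0217 to 0.0621). Without GW1516, AICAR replicate 2 had the highest median of brown fat markers (0.46, others -0.12 to 0.03).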

How the results depend on the processing

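The 18 genes called for the average effect became 5 with no variance trend and 8 at an adjusted p below 0.01. The contrast of combination minus AICAR alone, from the fit of 4 group means to all 12 arrays, gave 4. Other settings gave 12 to 26, the 26 being probe sets, and omissions of 1 array 11 to 26. For GW1516 minus vehicle (12 genes) the count was 7 with the mean of probe sets, 0 with no trend and 4 at an adjusted p below 0.01, and 0 to 41 over omissions. For the combination minus AICAR (4 genes) it was 2 with quantile normalization, median centring, no filter or the mean of probe sets, 1 at an adjusted p below 0.01, and 1 to 10 over omissions. The interaction gave 0 calls in all settings run. Among named genes the sign reversed for Ppargc1a (0.0653 in the arrays without AICAR) and Lpl (-0.0239 in the arrays with AICAR, -0.0114 to 0.196 over omissions), and the median of fast-twitch fibre genes became -0.0138 with quantile normalization. The cause of these shifts was not tested. Omitting both arrays at the ends of the first component, chosen after seeing the data, gave 18 calls.

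Deviations of same-numbered arrays from their group means correlated at -0.11 to 0.07. These were not compared with arrays of different numbers, so whether replicate numbers pair the arrays was not tested. With the replicate block the count was 13 for the average effect, all among the 18, and 1 for the combination minus AICAR. Dim probe sets and 3 pools per group limit what could be called, and detection calls were not used here.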

Other observations

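A group of genes chosen after its values were seen, the coats of transport vesicles between endoplasmic reticulum and Golgi, is given as values with no test of the group. Of 9 COPI coat genes tested, 6 lay above 0, with a median of 0.11 and 0 called by limma. All 6 arrays with GW1516 lay above the 6 without in 4 of the 9, which were chosen with these values seen, and in 0.454% of all genes. Cope differed by 0.31 ± 0.07 (1394 to 1545 without, 1608 to 2118 with GW1516), Copa by 0.25 ± 0.06, Copb2 by 0.24 ± 0.06 and Copg1 by 0.17 ± 0.06. Their adjusted p was 0.209, 0.261, 0.261 and 0.369. Copg2, the dimmer paralogue of Copg1, stood at -0.29 ± 0.13. Of 10 COPII coat genes 7 lay above 0 with a median of 0.07 and 0 called, from Sec13 at 0.24 ± 0.07 to Sec24d at -0.41 ± 0.15.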
